A study of Oryza sativa with 12 samples.

Results

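Transcript levels in 12-day rice plants of 2 OsC3'H1 knockout lines were set against those of 5-day wild-type seedlings, the control harvested before wild-type plants were moved to another container. A locus was used where the authors' deposited Cuffdiff table marks the test as done in both knockout comparisons and where at least 1 of the 3 groups reached 5 FPKM (fragments mapped to a transcript, scaled by its length in kilobases and by the mapped total). This left 17487 of 37672 loci, of 18037 with a completed test in both comparisons, and the comparison draws on 9 of the 12 samples of the series. For each line the log2 ratio of knockout over 5-day wild type was recomputed from the deposited FPKM. Of the 100 loci just above the minimum (highest group value up to 5.11 FPKM), line a had 24 called and line b had 28, and of the 100 just below it (down to 4.85 FPKM), 29 and 23.

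OsC3'H1 encodes a p-coumaroyl ester 3-hydroxylase, a cytochrome P450 of the lignin pathway. Lignin is a phenolic polymer that stiffens the walls of water-conducting and supporting cells. Its precursors come from phenylalanine, which phenylalanine ammonia-lyase (PAL) deaminates, and 4-coumarate-CoA ligase (4CL) later activates the hydroxylated acid. Hydroxycinnamoyl transferase (HCT) then makes the ester on which C3'H acts, and methyltransferases and alcohol dehydrogenases finish the guaiacyl and syringyl units. Plants that lack C3'H activity are known in several species for altered lignin composition and reduced growth.

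All plants were Nipponbare, a japonica cultivar, and RNA came from whole aerial parts. The groups were knockout line a at 12 days, knockout line b at 12 days, wild type at 12 days and wild type at 5 days, each with 3 biological replicates. The knockouts were T3-generation plants, and the labels give the other groups as wild type. Seedlings grew on 1/2-strength Murashige and Skoog salts set with 0.4% agar, at 27 °C with 12 h of light a day. Wild-type plants of the 12-day group were transferred on day 7 to a hypotonic tap-water solution, and no such transfer is described for the knockouts. Knockout plants and 5-day wild type therefore differ in age as well as genotype, and these cannot be told apart. If the knockouts stayed in the boxes, they differ from 12-day wild type in genotype and growth container together. The 12-day wild type is given beside the comparison for many genes as a set of values from unedited plants of the knockouts' age. Sample titles and source names give the lines opposite letters, and the letters here are those of the titles.

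The table holds 1 FPKM per group, pooled over its replicates, so no spread between replicates is given and depth is unknown. Loci above 0 numbered 27066 in line a, 27134 in line b, 26144 in 12-day wild type and 25605 in 5-day wild type. Errors of log2 ratios were taken from the deposited test statistic (the ratio over the statistic, called the implied error), with a median of 0.34 in each line. A locus is called changed where the q-value of the authors' deposited table is under 0.05. Deposited calls do not always follow the size of a ratio against its implied error. A p from that error gave 4761 called loci in line a, against 9104 by the deposited q. Of the root marker genes, LSI2, a silicon efflux transporter, is listed at 0 in all groups. LSI1, a root silicon channel, had 6.56 FPKM in line a, 6.99 in line b, 2.31 in 12-day wild type and 10.7 in 5-day wild type. Of the germinating-seed amylase genes, RAMY1A is listed at 0 in all groups, RAMY3E was under 0.1 FPKM in each, and RAMY3D had 1.15 and 4.51 FPKM in lines a and b, against 0.404 in 12-day and 0.766 in 5-day wild type. The seed storage gene GLUA2 had 2.96 and 2.87 FPKM in lines a and b, against 3.22 in 12-day and 2.41 in 5-day wild type.

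The targeted gene, also known as CYP98A4 (Os05g0494000), lies on chromosome 5 from 24271090 to 24275162 in build IRGSP-1.0, and its transcript was lower in each knockout line. It had 10.7 and 12.9 FPKM in lines a and b, against 53.1 in 12-day wild type and 65.7 in 5-day wild type. The log2 ratio to 5-day wild type was -2.62 ± 0.28 in line a and -2.35 ± 0.26 in line b (± implied error), a level 6.14-fold and 5.12-fold lower. Transcript remained above 0 in both lines, and a transcript level does not show whether protein is made.

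Falls and rises were nearly equal in number in each line. By the deposited q, 9104 loci (52.1% of the loci used) were called in line a, 4371 higher (25.0%) and 4733 lower (27.1%). In line b, 9344 loci (53.4%) were called, 4514 higher (25.8%) and 4830 lower (27.6%). In 12-day wild type against the same 5-day plants, 4680 of 16421 tested loci (28.5%) were called. The middle of the distribution stayed near 0, with median log2 ratios of -0.01 and -0.0032 in lines a and b. These percentages are the background against which counts of gene lists are read. For 12-day wild type they were 14.5% higher and 14.0% lower.

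Large rises outnumbered large falls. Over loci above 0 in both groups of a ratio, line a had 261 loci called 10-fold or more higher and 28 lower, and line b had 270 higher and 47 lower. At 2-fold or more falls were slightly more frequent, with 2040 higher and 2248 lower in line a, and 2099 higher and 2415 lower in line b. Apart from these, 122 of the loci used are listed at 0 in 5-day wild type, of which line a had 113 called and line b 112, and no fold is given for these. Such a locus entered only by reaching 5 FPKM in a knockout line, so a high call rate was built in. Listed at 0 in line a were 7 loci used, and in line b 9. These counts are not comparable with that of 122, since either knockout line could admit a locus but wild type only through the 5-day group.

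**Figure D1:**
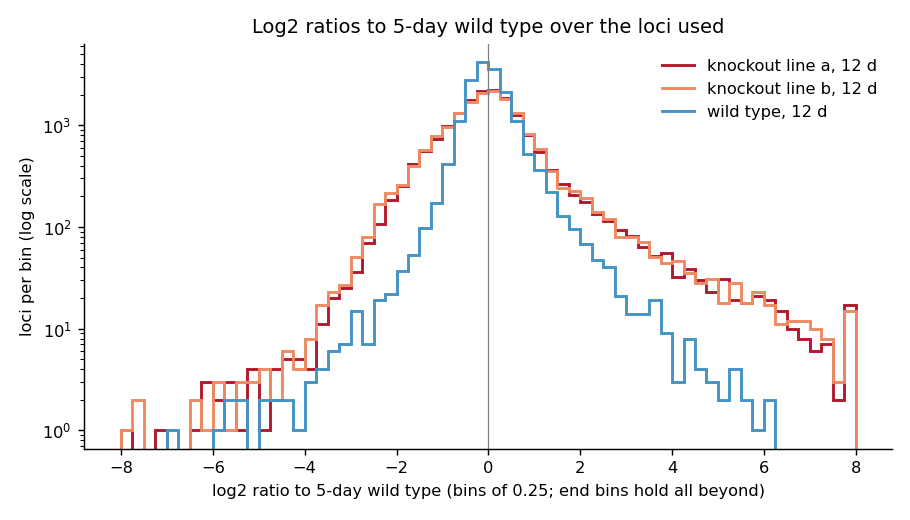
Number of loci (log scale) by log2 ratio to 5-day wild type, in bins of 0.25, for knockout line a, knockout line b and 12-day wild type over the loci used with finite ratios. Both knockout curves are wider than that of 12-day wild type, and their right arm, the rises, reaches farther than the left.

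Among loci with 1 annotated gene, called in both lines and above 0 in the groups compared, the 2 with the largest rises carry no name here. Os11g0211800 (chromosome 11, 5808714 to 5809427) had 186 and 153 FPKM in lines a and b, against 2.99 in 12-day and 0.847 in 5-day wild type. Os11g0702100 (chromosome 11, 28758837 to 28760003) had 77.8 and 76.5 FPKM in lines a and b, against 0.463 in 12-day and 0.468 in 5-day wild type. The largest falls by the same rule were Os01g0192900, with 0.819 and 0.991 FPKM in lines a and b, against 5.23 in 12-day and 56.0 in 5-day wild type, and Os02g0240300, with 3.99 and 6.05 against 131 and 259 in 12-day and 5-day wild type. Both of these were already lower in 12-day than in 5-day wild type, whereas Os11g0702100 had nearly the same value in the wild types.

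The share of loci called lower was larger among loci strongly expressed in wild type. Loci were classed by their FPKM in 12-day wild type, a group outside the ratio, so that a gene high in the knockouts alone, such as SALT, falls into a lower class. Under 10 FPKM, 32.5% of 5400 loci were called higher in line a and 12.1% lower, and in line b 33.9% higher and 12.0% lower. The filter admits loci low in 12-day wild type through high knockout values. Rises in this class are thus partly built in. Classing by a wild-type group also favours loci higher in wild type than in the knockouts. Falls in the upper classes are thus partly built in as well. From 100 to 300 FPKM, 16.3% of 1126 loci were called higher and 61.1% lower in line a, with 15.5% and 63.6% in line b. At 1000 FPKM or more, 61 of 74 loci (82.4%) were lower in line a and 62 (83.8%) in line b, with median log2 ratios of -2.04 and -2.27. Classed instead by the mean FPKM of both lines and 5-day wild type, the contrast was smaller. At 1000 FPKM or more, 18 of 35 loci (51.4%) were lower and 11 (31.4%) higher in line a, with 54.3% and 28.6% in line b. The median log2 ratios of that class were -0.89 and -0.96 in lines a and b. Under 10 FPKM by that mean, 22.1% of 4996 loci were higher and 18.1% lower in line a. In line b 23.1% were higher and 18.5% lower. The 100 most abundant loci with 1 gene held 23.2% of the summed FPKM of such loci of line a and 21.0% of that of line b, against 38.2% in 12-day and 33.0% in 5-day wild type.

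**Figure D2:**
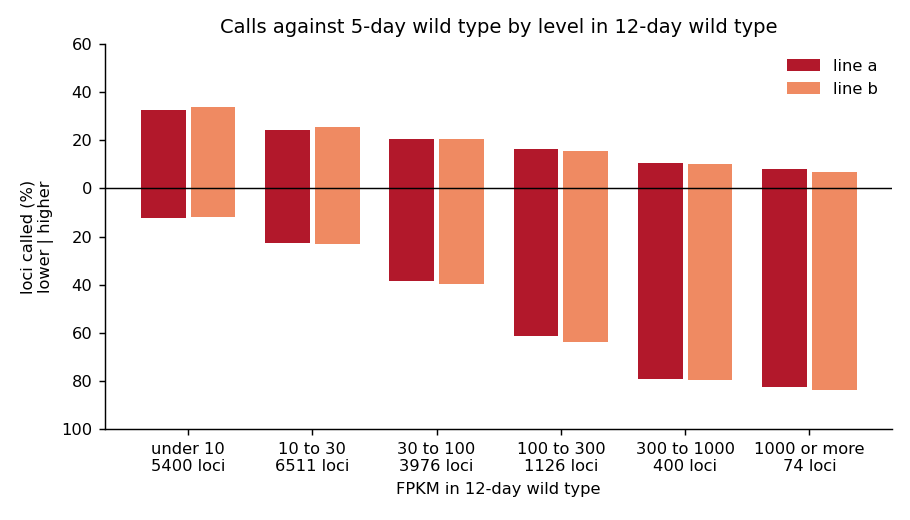
Percentage of loci called higher (bars above 0) and lower (bars below 0) than 5-day wild type in knockout line a and knockout line b, by FPKM class in 12-day wild type, with the number of loci under each class. The lower share grows from 12.1% to 82.4% in line a between the first and the last class, and the higher share shrinks from 32.5% to 8.11%. Loci low in 12-day wild type could pass the 5 FPKM minimum through high knockout values. Rises in the first class are thus partly built in. Falls in the upper classes are so too, since the classes were chosen by a wild-type level.

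Named genes follow, grouped by role. Among named genes called in both lines, the 15 largest rises were led by CHT4, a chitinase (Os04g0493400), NAAT1, nicotianamine aminotransferase of iron-chelator synthesis (Os02g0306401), CHT1 (Os06g0726200) and SALT, a salt-induced mannose-binding lectin (Os01g0348900). The 15 largest falls were led by CAB2R, a chlorophyll a/b-binding protein of the light-harvesting antenna (Os01g0600900), RBCS, the Rubisco small subunit (Os12g0274700), CAB1R, a second antenna protein (Os09g0346500), and PORA, a light-dependent protochlorophyllide reductase (Os04g0678700).

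**Figure D3:**
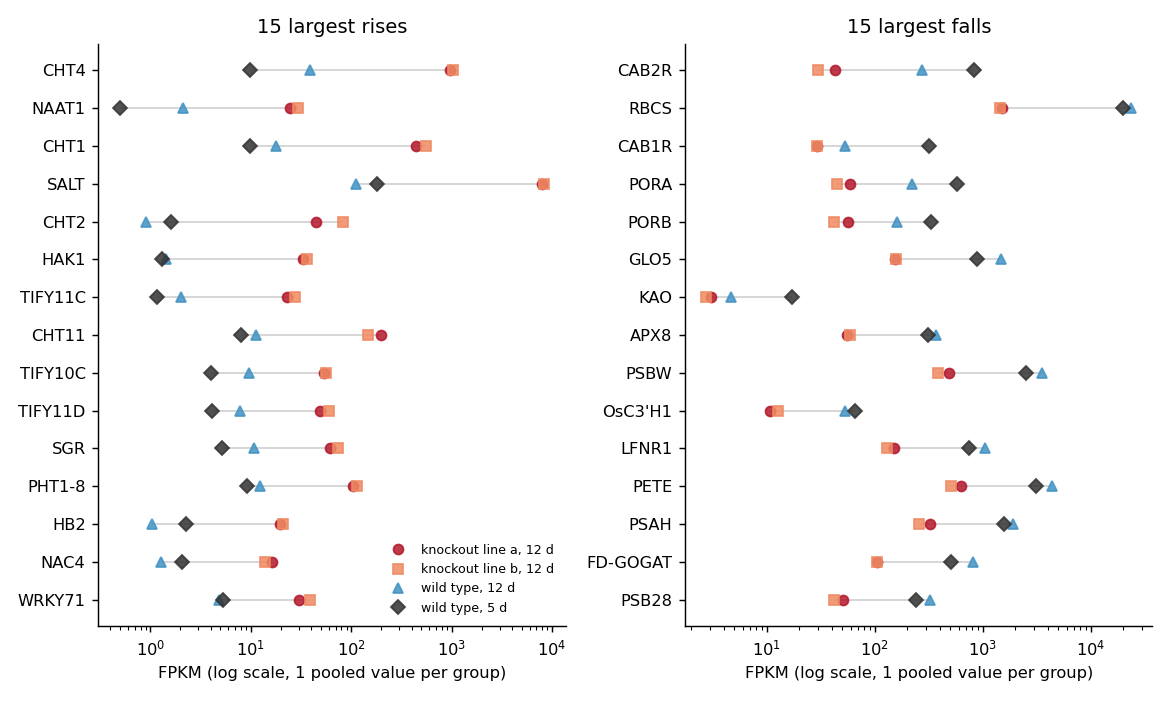
FPKM (log scale, 1 pooled value per group) of the 15 largest rises (left) and 15 largest falls (right) among named genes called in both knockout lines against 5-day wild type, with line a, line b, 12-day wild type and 5-day wild type as separate markers. CHT4 stands at 971 and 1038 FPKM in lines a and b, and RBCS at 1507 and 1452. Wild type at 12 days lies between the lines and 5-day wild type for CAB2R, CAB1R, PORA, PORB, KAO and OsC3'H1 among the falls, and above 5-day wild type for the other 9.

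Light-harvesting and electron-transport genes fell without exception among those named. All 8 members were called lower in each line, with a median log2 ratio of -2.32 and -2.61 in lines a and b, against medians near 0 over all loci used. In whole shoots, fewer cells of a type and less RNA per cell cannot be told apart. PETE, the mobile copper carrier plastocyanin, had 628 and 514 FPKM in lines a and b, against 4355 in 12-day and 3133 in 5-day wild type. PETC, the Rieske iron-sulfur subunit of cytochrome b6f, had 271 and 232 FPKM in lines a and b, against 1794 in 12-day and 1161 in 5-day wild type. LFNR1, a ferredoxin-NADP reductase of leaves, had log2 ratios of -2.32 and -2.53 (implied error 0.21 each), 4.99-fold and 5.79-fold lower in lines a and b. Transcripts of the photosystem proteins PSBW, PSB28 and PSAH were 4.67-fold to 5.17-fold lower in line a and 5.66-fold to 6.45-fold lower in line b. These 6 genes were all at higher FPKM in 12-day than in 5-day wild type, by 0.27 to 0.63 on the log2 scale, and the rise was called for 5 of them, PSAH being the exception.

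The antenna genes behaved otherwise in wild type. CAB2R had 43.0 and 29.9 FPKM in lines a and b, against 273 in 12-day and 840 in 5-day wild type. CAB1R had 29.4 and 29.0 FPKM in lines a and b, against 53.1 in 12-day and 319 in 5-day wild type. For CAB1R the ratio of 12-day to 5-day wild type was already -2.59 on the log2 scale, beside -3.44 in line a and -3.46 in line b. Both antenna genes were also called lower in 12-day than in 5-day wild type, and the knockout values were lower still. Antenna genes form a family of close copies, and how reads shared between copies were assigned is not given in the sources used here.

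Carbon fixation genes fell likewise, all 4 being called in each line (medians -2.17 and -2.44 in lines a and b). RCA, Rubisco activase, which frees inhibited Rubisco sites, had 1046 and 806 FPKM in lines a and b, against 9116 in 12-day and 4706 in 5-day wild type. FBA1, a fructose-bisphosphate aldolase, had log2 ratios of -1.82 and -2.01 in lines a and b, and FBPase, a fructose bisphosphatase, had -2.17 and -2.33. In 12-day wild type RCA, FBA1 and FBPase were called higher than at 5 days, by 0.95, 0.60 and 0.54 on the log2 scale. RBCS stood at 1507 and 1452 FPKM in lines a and b, against 23719.9 in 12-day and 20083 in 5-day wild type, a pair of values that was not called different. It too belongs to a family of near-identical copies.

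All 10 chlorophyll synthesis genes were called lower in each line, with medians of -1.95 and -2.13 in lines a and b. The magnesium chelatase subunits CHLI, CHLD and CHLH, which insert magnesium into the ring, had log2 ratios of -2.10, -1.83 and -2.19 in line a and -2.38, -1.95 and -2.45 in line b. PORA had 58.9 and 44.5 FPKM in lines a and b, against 222 in 12-day and 581 in 5-day wild type. PORB, its paralogue, had 57.2 and 42.4 FPKM in lines a and b, against 160 and 330 in 12-day and 5-day wild type. Unlike the electron-transport genes, 6 of the 10 were called lower in 12-day than in 5-day wild type and none higher, with a median of -0.34. GSA, which makes aminolevulinate, DVR, a divinyl reductase, CHLG and CHLP, the chlorophyll synthase and geranylgeranyl reductase of the tail steps, and CAO1, which makes chlorophyll b, completed the list at log2 ratios of -1.26 to -1.99 in line a and -1.35 to -2.13 in line b.

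**Figure D4:**
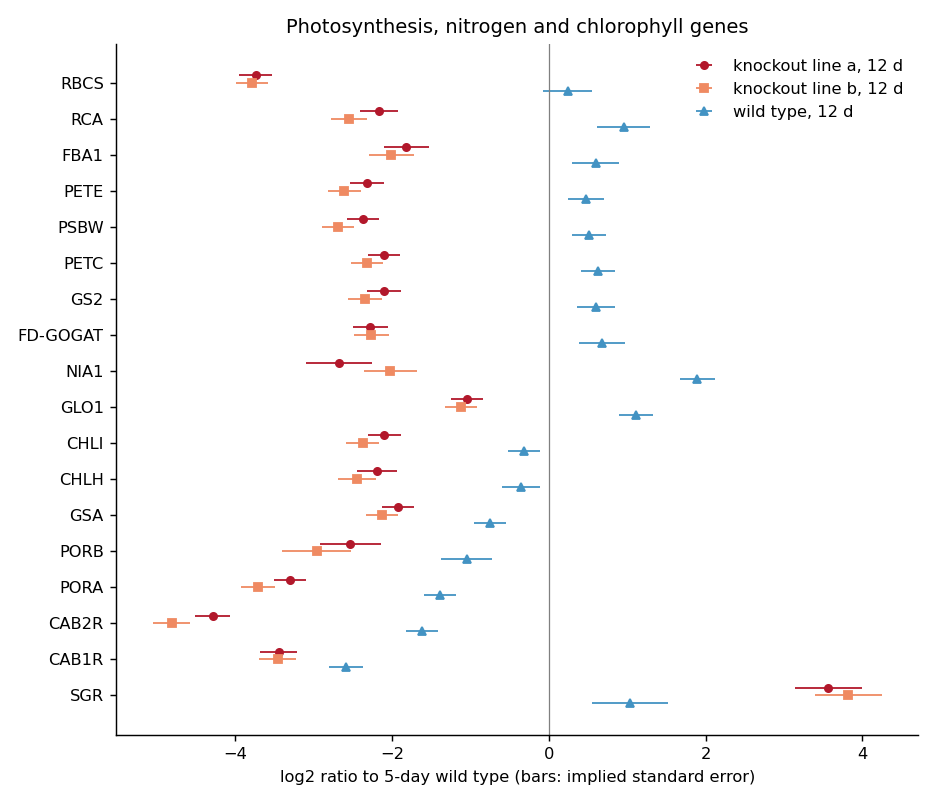
Log2 ratio to 5-day wild type, with the implied standard error as bars, of 18 photosynthesis, nitrogen and chlorophyll genes in knockout line a, knockout line b and 12-day wild type. From RBCS down to GLO1 the knockout points lie left of 0 and the 12-day wild-type points right of 0, from CHLI to CAB1R all lie left of 0, and SGR lies right of 0 in all, at 3.56 in line a and 3.82 in line b.

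Among the 4 chlorophyll breakdown genes, SGR rose and NOL fell. SGR, the stay-green magnesium dechelatase that commits chlorophyll to breakdown, had 61.7 and 73.8 FPKM in lines a and b, against 10.7 in 12-day and 5.21 in 5-day wild type. These log2 ratios of 3.56 and 3.82 (implied error 0.43 each) are 11.8-fold and 14.2-fold above 5-day wild type. NOL, a chlorophyll b reductase subunit, had log2 ratios of -0.75 and -0.81 in lines a and b, while NYC1, its partner, did not pass the test at 0.10 and 0.16. Of the Golden2-like activators of chloroplast genes, GLK1 was lower, with 51.9 and 44.4 FPKM in lines a and b, against 103 in 12-day and 118 in 5-day wild type. GLK2 was not called in either line, with 34.5 and 31.0 FPKM against 53.2 and 33.3 in 12-day and 5-day wild type.

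Of 6 nitrogen assimilation genes, 2 were called higher and 4 lower in line a, and 1 higher and 4 lower in line b. All loci used had 25.0% higher and 27.1% lower in line a, with 25.8% and 27.6% in line b. GS2, plastid glutamine synthetase, had 321 and 271 FPKM in lines a and b, against 2087 in 12-day and 1375 in 5-day wild type, and FD-GOGAT, ferredoxin-dependent glutamate synthase, was 4.84-fold and 4.80-fold lower in lines a and b. NIA1, a nitrate reductase, had 2.65 and 4.18 FPKM in lines a and b, against 63.2 in 12-day and 17.0 in 5-day wild type. Cytosolic GS1;2 also fell, with log2 ratios of -0.68 and -0.81. AMT1;1, an ammonium transporter, was called higher, with 32.4 and 29.5 FPKM in lines a and b, against 71.2 in 12-day and 21.0 in 5-day wild type, so that its direction turns with the control chosen. GS1;1, the other cytosolic form, was called higher in line a (log2 0.48) and not in line b (log2 0.23), and the lines were not called different from each other.

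Peroxisomal and antioxidant genes held members of both directions. Of the glycolate oxidases, which start the peroxisomal part of photorespiration, GLO5 was 5.83-fold and 5.61-fold lower in lines a and b, and GLO1 had log2 ratios of -1.05 and -1.12. GLO4, of the same family, was called higher, with 34.6 and 36.7 FPKM in lines a and b, against 15.6 in 12-day and 15.3 in 5-day wild type. Of 12 genes for reactive oxygen removal, 5 were higher and 4 lower in line a, and 5 higher and 7 lower in line b. The shares over all loci used were 25.0% higher and 27.1% lower in line a, and 25.8% and 27.6% in line b. The chloroplast enzymes APX8, a thylakoid ascorbate peroxidase, and SODCP, a plastid copper/zinc superoxide dismutase, had the largest falls, at -2.48 and -2.16 in line a and -2.40 and -2.04 in line b. The catalases CATA and CATB rose, CATA with 353 and 357 FPKM in lines a and b, against 128 in 12-day and 179 in 5-day wild type. SODCP shares its merged locus with another gene. The same holds for CAO1, MCM2, PHR2, GLUA2 and SUS1, named elsewhere here. Some loci with 1 annotated gene span a long stretch, as PORB does from 18813594 to 18959041 and RCA from 28918107 to 28977783. FBPase and TIP1-1 are alike, and whether other transcripts count toward their FPKM is not known.

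Cell division genes were lower in both lines. Of 16 cell cycle and DNA replication genes, 13 were called lower in line a and 12 in line b, and none higher (medians -1.03 and -0.96). The lower share over all loci used was 27.1% in line a and 27.6% in line b. PCNA, the sliding clamp of replicative polymerases, had 49.1 and 50.9 FPKM in lines a and b, against 122 in 12-day and 134 in 5-day wild type. CYCB1-1, a mitotic cyclin, had 17.7 and 21.3 FPKM in lines a and b, against 38.1 and 48.6 in 12-day and 5-day wild type. The 6 MCM helicase subunits, which unwind origins, had log2 ratios from -1.28 to -0.68 in line a and from -1.28 to -0.74 in line b. Against 5-day wild type, 12-day wild type was called lower for 3 of the 16, MCM2, CYCB2-2 and CYCB1-1, with a list median of -0.13. CDKA-2 and CYCD4-1, a cell cycle kinase and a D-type cyclin, were not called in either line.

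Cellulose synthase genes had small ratios. None of the 9 cellulose synthase catalytic subunits was called in line b and 1, CESA3, was called higher in line a at a log2 ratio of 0.32, with all 9 between -0.35 and 0.32 in line a. CESA4, CESA7 and CESA9, the secondary-wall subunits, had 69.6, 53.2 and 48.8 FPKM in line a and 65.7, 47.4 and 45.8 in line b, against 59.0, 53.7 and 42.3 in 5-day wild type. Expansins, which loosen walls, were mixed: of 10, 3 were higher and 2 lower in line a, and 5 higher and 2 lower in line b. Of all loci used, 25.0% were higher and 27.1% lower in line a, so the list did not stand out there. In line b these shares were 25.8% and 27.6%. EXPB6, a beta-expansin, was called higher in both lines, with 117 and 152 FPKM in lines a and b, against 21.6 in 12-day and 41.8 in 5-day wild type.

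In the pathway of the targeted enzyme, more genes rose than fell. Of 12 phenylpropanoid and monolignol genes other than OsC3'H1, 8 were called higher and 1 lower in line a, and 7 higher and 1 lower in line b, with medians of 0.69 and 0.54. The higher share over all loci used was 25.0% in line a and 25.8% in line b. At the entry, PAL1 had 1425 and 1253 FPKM in lines a and b, against 673 in 12-day and 867 in 5-day wild type, and ZB8, another PAL gene, had log2 ratios of 0.73 and 0.63. Among the 4CL genes, 4CL5 rose most, with 9.001 and 6.95 FPKM in lines a and b, against 0.705 in 12-day and 1.74 in 5-day wild type. 4CL3 rose by log2 ratios of 0.80 and 0.54, and 4CL4 was not called, at -0.07 and 0.09. 4CL2 was the list's only called fall, with 4.01 and 3.56 FPKM in lines a and b, against 15.9 in 12-day and 12.6 in 5-day wild type.

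Genes for the steps just before and after C3'H were called higher or not called. HCT2, one of the hydroxycinnamoyl transferases, had 91.5 and 105 FPKM in lines a and b, against 52.4 in 12-day and 64.0 in 5-day wild type, and was called higher. HCT1 had similar ratios, 0.66 and 0.70, with implied errors of 0.83 and 0.84, and was not called. Downstream, the caffeoyl-CoA methyltransferase CCoAOMT15 (582 FPKM in line a, 515 in line b, 352 in 5-day wild type) and the cinnamyl alcohol dehydrogenase CAD2 (70.2, 59.7 and 37.6 FPKM in the same order) were called higher in both lines. COMT1, which methylates toward syringyl units, was called in line a alone, at a log2 ratio of 0.33 against 0.19 in line b, and the lines were not called different from each other for it. The list median in 12-day wild type was -0.26, with 4 members called lower than at 5 days and none higher. In the flavonoid branch, which shares the CoA ester of 4CL, CHS1, chalcone synthase, had 68.0 and 68.4 FPKM in lines a and b, against 275 in 12-day and 228 in 5-day wild type, and CHI, chalcone isomerase, also fell at -0.55 and -0.63.

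Among named genes called in both lines, the largest finite rise was that of a pathogenesis-related gene, CHT4. Of 6 such genes, 4 were called higher in each line and none lower, beside 25.0% and 25.8% higher over all loci used. CHT4 (chromosome 4) had 971 and 1038 FPKM in lines a and b, against 39.0 in 12-day and 9.82 in 5-day wild type. The log2 ratios to 5-day wild type were 6.63 and 6.72 (implied error 0.35 each), 98.9-fold and 106-fold. CHT2 had 44.8 and 82.7 FPKM in lines a and b, against 0.898 and 1.604 in 12-day and 5-day wild type, and CHT11 had 200 and 147 against 11.4 and 8.07 in 12-day and 5-day wild type. CHT8 and PBZ1, a PR10-type protein induced by probenazole, had high knockout values and were not called. PBZ1 had 194 and 330 FPKM in lines a and b, against 4.48 in 12-day and 1.64 in 5-day wild type, and CHT8 had 153 and 172 against 3.30 and 0.660 in 12-day and 5-day wild type. Their q in the authors' deposited table was 0.303 for PBZ1 and 0.1003 for CHT8 in each line, with implied errors of 1.83 and 1.53 on the log2 scale in line a. By a p from the implied error, both genes were called in both lines, so the deposited q does not follow from these errors. In all, 10 list genes were more than 8-fold higher in line a without a call, each with under 5 FPKM in 5-day wild type.

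Most of the WRKY and NAC transcription factors used were called higher as well, against 25.0% and 25.8% of all loci used in lines a and b. Of 5 WRKY genes, 4 were called higher in each line, led in line b by WRKY71 with 29.9 and 39.1 FPKM in lines a and b, against 4.87 in 12-day and 5.26 in 5-day wild type. WRKY62 had 29.97 and 24.6 FPKM in lines a and b, against 1.41 and 1.97 in 12-day and 5-day wild type, and was not called. Of 5 NAC factors used from the list of stress and senescence NAC factors, 4 were called higher in each line. NAP, the senescence factor of that list, was dropped in the check of names. NAC6 had 99.4 and 118 FPKM in lines a and b, against 48.5 in 12-day and 23.6 in 5-day wild type, and NAC4 had 16.4 and 13.9 against 1.27 and 2.06 in 12-day and 5-day wild type. NAC2 was not called, at log2 ratios of 0.37 and 0.48.

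Of 11 jasmonate synthesis and TIFY genes, 10 were called higher in each line, with medians of 0.95 and 0.94. Higher calls made up 25.0% and 25.8% of all loci used in lines a and b. TIFY genes encode JAZ repressors, which jasmonate itself induces in a feedback loop. TIFY11C had 22.8 and 27.5 FPKM in lines a and b, against 2.01 in 12-day and 1.15 in 5-day wild type, and TIFY10C had 54.2 and 56.7 against 9.60 and 3.99 in 12-day and 5-day wild type. The synthesis enzymes moved less. AOS1, allene oxide synthase, AOC, allene oxide cyclase, and OPR7, an oxophytodienoate reductase, had log2 ratios of 0.95, 0.48 and 0.89 in line a and 0.94, 0.46 and 0.85 in line b. JAR1, which conjugates jasmonate to isoleucine, was not called. Against 5-day plants, 12-day wild type was called higher for 5 of the 11, with a median of 0.48.

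Dehydration-response genes included several listed at or near 0 in 5-day wild type. Of 6, 4 were called higher in each line and none lower, beside 25.0% and 25.8% higher over all loci used. Of these 4, LEA3 and RAB16C entered the loci used only through knockout values, so their calls were partly built in. SALT had 7955 and 8394 FPKM in lines a and b, against 112 in 12-day and 181 in 5-day wild type. LEA3, a late-embryogenesis protein, had 94.0 and 54.2 FPKM in lines a and b, against 6.05 in 12-day wild type, and is listed at 0 in 5-day wild type. RAB16C, a dehydrin, had 19.7 and 9.66 FPKM in lines a and b, 2.54 in 12-day wild type and a listing at 0 in 5-day wild type. RAB16A had 260 and 156 FPKM in lines a and b, against 3.84 and 0.292 in 12-day and 5-day wild type, and was not called against 5-day wild type, with an implied error of 3.10. By a p from that error it was called. LIP9, a dehydrin, was called higher at 0.71 and 0.64.

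Diterpenoid phytoalexin genes, whose products are antimicrobial, were near 0 in wild type. CPS4 and KSL4, successive cyclases of momilactone synthesis, are listed at 0 in both wild types and had 4.94 and 8.39 FPKM in line a and 9.17 and 6.53 in line b. KSL7, a kaurene synthase-like cyclase, had 4.33 FPKM in line a and 10.4 in line b, with 0 listed in 12-day and 0.0550 in 5-day wild type. It and CYP99A2, a P450 of the same cluster as CPS4 and KSL4, were not called. These 4 genes reached 5 FPKM only in a knockout line, so calls among them were partly built in. The other 7 of the 11 named genes of the list did not enter the loci used. In serotonin synthesis, T5H, tryptamine 5-hydroxylase, had 25.1 and 26.6 FPKM in lines a and b, against 5.67 in 12-day and 5.44 in 5-day wild type. Of the enzymes before it, ASA1, an anthranilate synthase subunit, and TDC2, a tryptophan decarboxylase, were called lower, at -1.58 and -1.50 in line a and -1.63 and -2.02 in line b.

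Among nutrient genes, strong rises were found in transporters of potassium and phosphate and in enzymes of iron-chelator synthesis. HAK1, a high-affinity potassium transporter, had 33.1 and 36.5 FPKM in lines a and b, against 1.43 in 12-day and 1.299 in 5-day wild type, 25.5-fold and 28.1-fold above the 5-day value. AKT1, a potassium channel, was called higher at 1.04 and 1.14. PHT1-8, a phosphate transporter, had 103 and 115 FPKM in lines a and b, against 12.4 and 9.27 in 12-day and 5-day wild type, while the phosphate regulators PHR2 and SPX1 were not called. Of the iron genes, NAS1 and NAS2, nicotianamine synthases, are listed at 0 in 5-day wild type and had 11.2 and 8.33 FPKM in line a and 9.39 and 7.15 in line b. Both entered the loci used only through knockout values. NAAT1, the next enzyme, had 24.8 and 29.8 FPKM in lines a and b, against 2.12 and 0.495 in 12-day and 5-day wild type, and was called with an implied error of 2.05 in each line. NAS3, of the same family, moved the other way, with 11.8 and 20.1 FPKM in lines a and b, against 15.1 and 34.8 in 12-day and 5-day wild type.

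Sugar transporters were called higher for 5 of 7 genes in line a and 4 in line b, beside 25.0% and 25.8% of all loci used. SWEET15, a sucrose exporter, had 14.2 and 13.9 FPKM in lines a and b, against 1.36 in 12-day wild type, and is listed at 0 in 5-day wild type. It entered the loci used only through its knockout values. MST3, a monosaccharide importer, had 33.7 and 55.3 FPKM in lines a and b, against 7.84 and 10.2 in 12-day and 5-day wild type. SUT1, the phloem-loading sucrose transporter, was called higher at 0.64 and 0.75. SWEET14 was the called fall, at -0.75 and -1.23. SUS1, a sucrose synthase whose merged locus holds another gene, was lower at -1.64 and -1.56, and AGPS2, a small subunit of the ADP-glucose pyrophosphorylase of starch synthesis, at -0.70 and -0.67.

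Water channels were called lower or not called. Of 9 aquaporins, 5 were called lower in each line and none higher, while in 12-day wild type 5 were called lower and 1, PIP2-2, higher. Lower calls made up 27.1% of all loci used in line a, 27.6% in line b and 14.0% of those tested in 12-day wild type. TIP1-1, a tonoplast channel, had 715 and 793 FPKM in lines a and b, against 719 in 12-day and 1088 in 5-day wild type, so the knockout values were close to those of their own age. PIP2-2, a plasma-membrane channel, instead had 85.4 and 91.9 FPKM in lines a and b, against 198 in 12-day and 155 in 5-day wild type. TIP1-2 had 21.7 and 21.6 FPKM in lines a and b, against 20.7 in 12-day and 0.321 in 5-day wild type, and was not called, with an implied error of 2.39.

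Non-symbiotic haemoglobins, which scavenge nitric oxide and are induced by low oxygen, rose. HB2 had 19.5 and 20.8 FPKM in lines a and b, against 1.05 in 12-day and 2.28 in 5-day wild type, and HB1 had 30.4 and 27.5 against 2.25 and 6.42 in 12-day and 5-day wild type. The fermentation genes did not share a direction: ADH1, alcohol dehydrogenase, was higher at 0.49 in each line, and PDC2, pyruvate decarboxylase, was lower at -1.08 and -0.93.

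Of 5 gibberellin genes used, 1 was called higher and 1 lower in each line. Over all loci used in line a, 25.0% were called higher and 27.1% lower, so the list did not stand out. It covers only part of the pathway. GID1, the receptor, had 98.2 and 103 FPKM in lines a and b, against 30.2 in 12-day and 28.9 in 5-day wild type. KAO, ent-kaurenoic acid oxidase, had 3.06 and 2.77 FPKM in lines a and b, against 4.65 and 17.1 in 12-day and 5-day wild type. It was also called lower in 12-day than in 5-day wild type (log2 -1.88). Against 12-day wild type KAO was not called in either line. SLR1, the DELLA repressor that GID1 removes, was not called, at -0.19 and -0.17. Of 5 KNOX class I genes, which maintain the shoot meristem, 3 were among the loci used, and OSH71 was not called. OSH1 and OSH15 are listed at 0 in 5-day wild type and were called. Both entered only by reaching 5 FPKM in a knockout line, so their calls were partly built in. OSH1 had 5.91 FPKM in line a, 5.00 in line b and 3.18 in 12-day wild type, and OSH15 had 5.87, 4.64 and 2.39 FPKM in the same order.

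Clock genes, whose level depends on the hour of harvest, were mostly uncalled. CCA1, a morning repressor, had 137 and 92.1 FPKM in lines a and b, against 515 in 12-day and 153 in 5-day wild type. It was called lower in line b alone, and the lines themselves differed (log2 -0.57, line b over line a, called). GI, an evening gene, was higher at 1.37 and 1.55, and also in 12-day wild type at 1.15. The hour of harvest is not given in the sources used here. The phytochromes PHYA, PHYB and PHYC lay between -0.27 and 0.25 in line a, with none called, and between -0.09 and 0.37 in line b, where PHYA, at 0.37, was called higher.

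**Figure D5:**
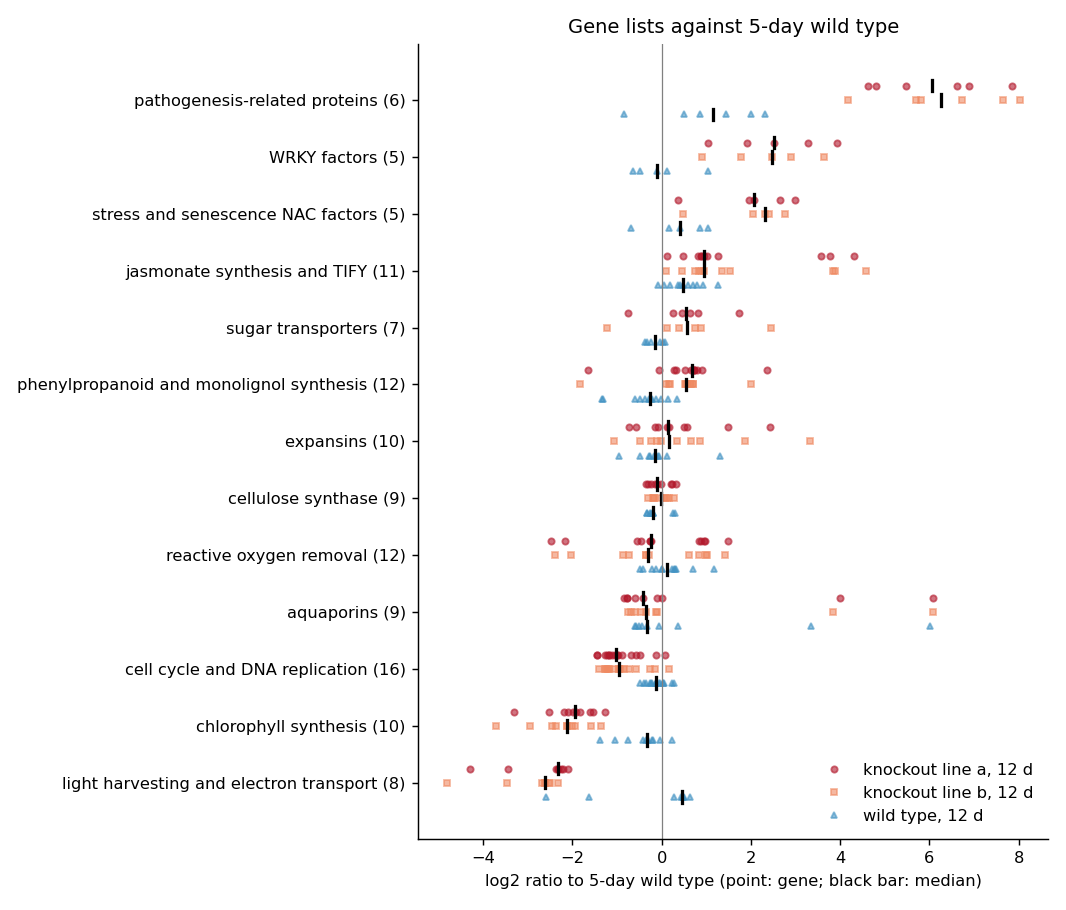
Log2 ratio to 5-day wild type of each gene (points) and the list median (black bars) in 13 gene lists, for knockout line a, knockout line b and 12-day wild type, with the number of genes used in brackets. Genes listed at 0 in a group have no finite ratio and are not drawn. Knockout medians run from -2.32 and -2.61 for light harvesting to 6.05 and 6.27 for pathogenesis-related genes in lines a and b, while the 12-day wild-type medians lie between -0.34 and 1.15.

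The 2 lines stood close to each other. Tested directly, 809 of 16952 loci (4.77%) differed between line b and line a, 386 (2.28%) higher and 423 (2.5%) lower in line b, with a median absolute log2 ratio of 0.13. RAB16B differed most among the named genes called between the lines, with 41.2 FPKM in line a and 14.9 in line b (log2 -1.47, line b over line a). KSL7 differed most in the other direction, with 4.33 and 10.4 FPKM (log2 1.26).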

How the data were processed

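RNA-seq reads of 12 samples in 4 groups were handled on build IRGSP-1.0; the submitters' processing notes name HISAT2, Trimmomatic, FastQC, Cuffdiff and Cufflinks, without versions or options. The authors' deposited table covers 37672 loci and 6 comparisons. The authors' deposited values are FPKM, 1 per group pooled over 3 replicates. Each comparison carries deposited log2 ratios, a deposited test score (the Cuffdiff statistic), a deposited p-value and a q-value, which adjusts over all 108602 completed tests. Here log2 ratios were recomputed from FPKM, loci were filtered at 5 FPKM, and the deposited q under 0.05 decided a call. The implied error is the deposited log2 ratio over the deposited score. No fold is given against a group listed at 0.

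Library totals are unknown because the table holds no counts, so precision is known only through the implied errors. Strand handling is not given, so antisense reads cannot be told apart.

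Symbols came from hand-written gene lists by locus. Of 365 entries, 243 were kept, 242 because RefSeq (assembly ASM3414082v1) gives the symbol at the same place relative to neighbouring genes (within 300000 bases of the shift of 1 of the 2 nearest list genes on either side), and OsC3'H1 by its published name. This drops 119 symbols that RefSeq does not give on that chromosome and 3 placed elsewhere, so list counts cover only part of each family. The genes and lists were chosen with earlier results of these data known. Named genes were OsC3'H1, the 15 largest rises and 15 largest falls by the smaller ratio of the lines among named 1-gene loci called in both, up to 6 per list (3 largest in each direction), those listed at 0 in a group (the 5 highest), and the 5 called between the lines with the largest ratio. Other list members were added where a sentence on their pathway needed them, after their values were seen. Calculations used Python 3.11.15 with pandas, numpy and scipy, and the adjustment and implied-error code was tested on simulated data. Sequences were not used here.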

Additional observations from a re-analysis of the deposited data

Results flagged for a closer look

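Of 124 named genes, 26 differed between the lines by the deposited test of line b against line a, 12 higher and 14 lower in line b, beside 4.77% of all loci used and tested. Of the named genes, 5 had been chosen because the lines differed. Each value here is the log2 ratio of line b over line a. Among dehydration genes, RAB16B stood at -1.47, RAB16C at -1.03, LEA3 at -0.80 and RAB16A at -0.74. Of the photosynthesis and chlorophyll genes, CAB2R had -0.52, PORA -0.41, RCA -0.38, PSAH -0.35, PSBW -0.32 and PETE -0.29. The factor WRKY76 had -0.81 and WRKY71 0.38, and the clock gene CCA1 had -0.57. Of the pathogenesis-related genes, CHT11 had -0.45, whereas CHT1 had 0.33, PBZ1 0.77 and CHT2 0.88. SODCC1, a cytosolic superoxide dismutase, had -0.30. The expansins EXPB3, EXPB6 and EXPA1 had 0.28, 0.38 and 0.89. NIA1 had 0.66, MST3 0.71 and NAS3 0.77. The diterpenoid genes CPS4 and KSL7 had 0.89 and 1.26. Each letter belongs to the other line if the source names rather than the titles are right.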

How the results depend on the processing

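The count of called loci was 9104 in line a and 9344 in line b and stayed within 1.5 times of that with q under 0.01, adjustment within the comparison, no minimum FPKM, a minimum of 1 FPKM, loci with 1 gene, and a completed test in the line's own comparison only. It moved further with at least a 2-fold change (4288 in line a, 4514 in line b, over finite ratios), with a p from the implied error (4761 and 4994), and with a minimum of 20 FPKM (6000 and 6142), which tests fewer loci. OsC3'H1 was called lower in both lines under every alternative run, between -2.62 and -2.05. With 12-day wild type as control, 23 of 228 ratios of named genes changed sign, 17 of them not called against 5-day wild type. The 6 called ones were LSI1 to 1.504 and 1.596 in lines a and b, AMT1;1 to -1.14 and -1.27, and in line b alone TIP1-1 to 0.14 and NAS3 to 0.41. With a p from the implied error, CHT8, PBZ1, WRKY62, RAB16A and RAB16B became called in both lines, and 18 of 228 ratios of named genes lost their call, against 7 with q under 0.01. No paired analysis was possible because the table holds 1 pooled value per group, and no replicate could be left out. Depth, and so a floor for a value of 0, is unknown.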
